A study of Mus musculus with 6 samples.

Results

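The genes described here encode the Fc receptors for IgG, the cell surface proteins by which myeloid cells bind antibody-coated particles and immune complexes. The members were 6 genes chosen by name, namely the activating receptors Fcgr1, Fcgr3 and Fcgr4, the signalling chain Fcer1g, the inhibitory receptor Fcgr2b and the neonatal receptor Fcgrt. A probe set with a single gene symbol was found for 5 of the 6, out of 19938 genes tested in all. Fcgrt was not analysed here, so the neonatal receptor was not compared between the populations. Each of the 5 genes had 1 probe set.

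The measurements come from 6 Affymetrix Mouse Gene 1.0 arrays, which hybridise biotin-labelled RNA to short oligonucleotide probes. The cells were grown from the marrow of tibia and femur of mice labelled C57B/6, for 6 days in 20 ng/ml recombinant GM-CSF, the cytokine that drives myeloid growth and differentiation. The labels divide these cultures into a dendritic population (n = 3 arrays) and a macrophage population (n = 3 arrays), both unstimulated and without any further treatment. Genotype alterations and the age of the mice are not in the labels, nor are the surface markers that separated the populations. If an antibody to one of the receptors below was used for that separation, its difference would be part of the separation. Nothing in the labels says that the replicates came from separate mice or cultures, so the p-values reflect the spread of these arrays alone, and that spread may be technical.

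The activating receptors bind IgG through extracellular immunoglobulin domains and signal through the Fc receptor gamma chain, the product of Fcer1g. The gamma chain carries an ITAM, a tyrosine motif that Src family kinases phosphorylate and that then recruits the kinase Syk. Fcgr2b carries an ITIM instead, which recruits the lipid phosphatase SHIP1 (Inpp5d) and dampens the activating signal. The balance of the activating and inhibitory receptors is known to set the threshold at which immune complexes trigger phagocytosis, cytokine release and dendritic cell maturation.

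All 5 measured members differed in the same direction between the populations. The window of Fcer1g is left out here, and the promoters of the 4 receptor genes are shown. Each is a RefSeq window of the build GRCm38.p6, from 250 bases before to 50 bases after an annotated start site, written 5′ to 3′ on the gene's strand. Capitals mark matches to GAGGAA, the core bound by the myeloid transcription factor PU.1, and to TTCNNNGAA, the interferon-gamma activated site bound by STAT dimers. Both strands were searched, and TTCCTC is the first motif read on the opposite strand. Fcgr1 lies at chr3:96293920-96294219 on the minus strand, Fcgr3 at chr1:171059354-171059653 on the minus strand, Fcgr4 at chr1:171018676-171018975 on the plus strand and Fcgr2b at chr1:170976022-170976321 on the minus strand.
Fcgr1: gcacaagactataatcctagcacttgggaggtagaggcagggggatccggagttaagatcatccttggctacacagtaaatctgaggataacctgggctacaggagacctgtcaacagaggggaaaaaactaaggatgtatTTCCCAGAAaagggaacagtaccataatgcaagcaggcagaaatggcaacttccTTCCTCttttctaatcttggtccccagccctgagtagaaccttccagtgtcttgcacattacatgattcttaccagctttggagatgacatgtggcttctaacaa
Fcgr3: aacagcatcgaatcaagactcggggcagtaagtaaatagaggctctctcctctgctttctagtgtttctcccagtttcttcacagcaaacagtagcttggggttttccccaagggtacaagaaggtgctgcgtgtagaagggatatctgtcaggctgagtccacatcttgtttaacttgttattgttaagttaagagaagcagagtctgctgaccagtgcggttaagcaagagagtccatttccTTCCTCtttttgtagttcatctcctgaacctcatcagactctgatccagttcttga
Fcgr4: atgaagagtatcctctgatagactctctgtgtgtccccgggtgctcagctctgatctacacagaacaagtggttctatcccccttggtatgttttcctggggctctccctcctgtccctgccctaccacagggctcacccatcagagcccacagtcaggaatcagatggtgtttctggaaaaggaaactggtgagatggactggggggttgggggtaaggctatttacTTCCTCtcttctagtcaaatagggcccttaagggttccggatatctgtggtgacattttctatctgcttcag
Fcgr2b: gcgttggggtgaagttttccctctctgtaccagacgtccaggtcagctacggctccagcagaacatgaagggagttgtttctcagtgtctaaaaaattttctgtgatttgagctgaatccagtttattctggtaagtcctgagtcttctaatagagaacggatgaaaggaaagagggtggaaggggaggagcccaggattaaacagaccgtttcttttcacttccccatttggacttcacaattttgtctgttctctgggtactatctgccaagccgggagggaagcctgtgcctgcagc

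The PU.1 core was found once in the windows of Fcgr1, Fcgr3 and Fcgr4, which encode the activating receptors. Counting the start site as 0, it spanned positions -55 to -50 in Fcgr1, -6 to -1 in Fcgr3 and -22 to -17 in Fcgr4. These letters occur in 28.3% of all 32851 windows of the same length in the table, so a match is common. The windows of Fcgr2b and Fcer1g held no match to any of the motifs searched. The interferon-gamma activated site was matched in Fcgr1 alone among the 5 genes, from -109 to -101, against 8.30% of all windows. The AP-1 motif TGANTCA, present in 7.81% of all windows, was matched in none of them. RefSeq lists 2 overlapping windows for Fcgr3, of which 1 is shown, and both held the same PU.1 core. A match describes these letters only.

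The values are the deposited log2 RMA values. Differences subtract the macrophage mean from the dendritic mean and carry the standard error and adjusted p of limma over all genes (Benjamini-Hochberg), with 0.05 as the threshold of a call. All 5 measured members were called lower in the dendritic population, where 11.6% of all genes tested were called lower and 21.6% were called in either direction. In each of the 5 every dendritic array lay under every macrophage array, which held for 16.7% of all genes. The median difference of the 5 was -4.24, and that of all genes was 0.03. In bulk samples such as these, fewer cells that express a gene and less RNA per cell cannot be told apart.

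**Figure D1:**
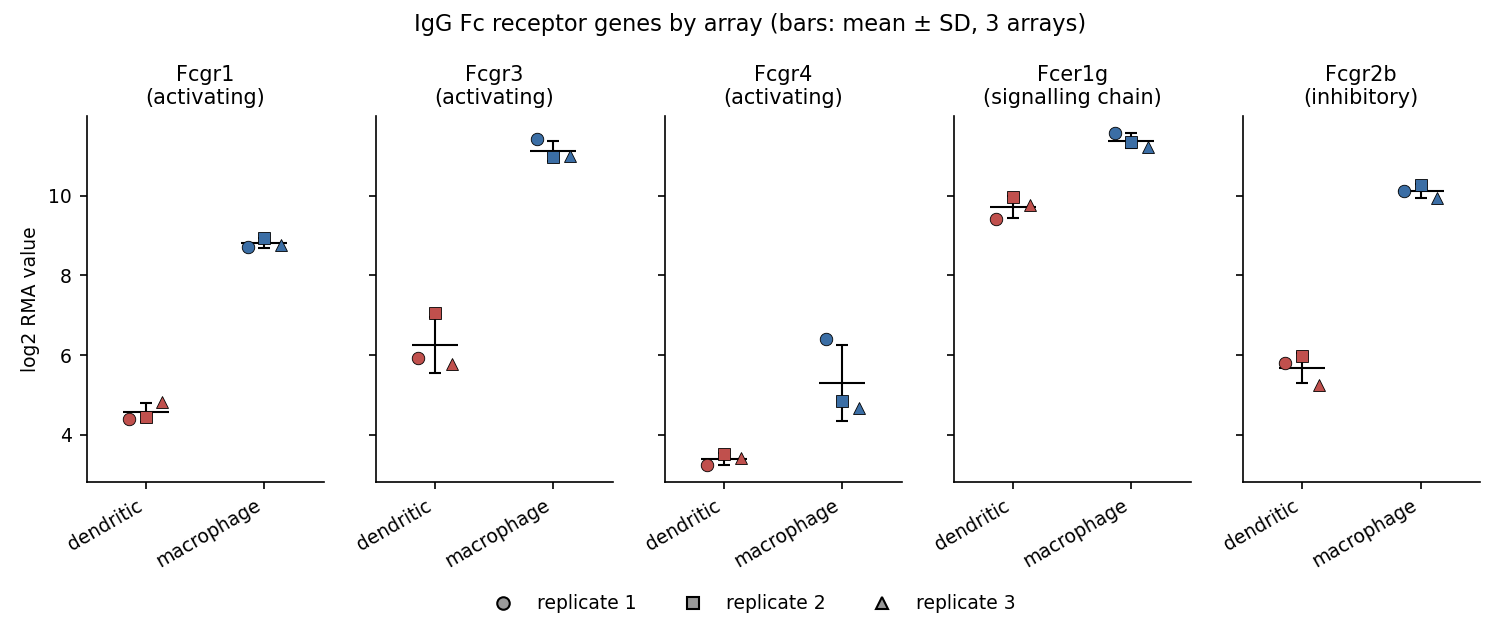
Log2 RMA value (vertical axis) of the 5 measured IgG Fc receptor genes on each of 6 arrays, by population. Symbols are arrays, and bars are the mean ± SD of 3 arrays. The dendritic arrays lie below the macrophage arrays in each panel, with a spread of 1.72 between the macrophage arrays for Fcgr4.

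Fcgr1 (probe set 10500335) encodes the high-affinity receptor CD64, which binds monomeric IgG. Its values were 4.40, 4.45 and 4.83 in dendritic replicates 1, 2 and 3 and 8.70, 8.94 and 8.77 in macrophage replicates 1, 2 and 3. The populations were separated by a gap of 3.87 between the highest dendritic and the lowest macrophage array. The difference was -4.24 ± 0.15 (SE), 18.9-fold on this scale (limma adjusted p = 4.10e-07). The dendritic mean of 4.56 ± 0.24 (SD, n = 3) lay below the arrays' medians over all probe sets, which were 4.79 to 4.96. The files hold no detection calls, so whether Fcgr1 was expressed in the dendritic population is not known, and its fold is a value on the RMA scale.

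Fcgr3 (probe set 10360040) encodes the low-affinity activating receptor CD16, which binds immune complexes. It held 5.92, 7.06 and 5.78 in the dendritic arrays and 11.41, 10.96 and 10.98 in the macrophage arrays. Dendritic replicate 2 was the highest of its population by far, and the gap to the lowest macrophage array was still 3.90. The difference of -4.87 ± 0.31 was the largest of the members, 29.1-fold (limma adjusted p = 7.83e-06). Ordered from the lowest difference, Fcgr3 stood at rank 25 of 19938 genes, Fcgr2b at rank 47, Fcgr1 at rank 54, Fcgr4 at rank 440 and Fcer1g at rank 552. These ranks rest on RMA values, in which a dim dendritic mean limits the size of a difference.

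Fcgr4 (probe set 10351509) encodes an activating receptor of intermediate affinity that mice carry on monocytes, macrophages and neutrophils. Its dendritic values were 3.24, 3.53 and 3.41. Its macrophage values were 6.39 in replicate 1, 4.85 in replicate 2 and 4.67 in replicate 3. Macrophage replicate 1 was thus the only array above the median level of all probe sets by more than 1 log2 unit, while the other macrophage arrays lay near that median. The difference was -1.91 ± 0.39, 3.76-fold (limma adjusted p = 0.00665). Without macrophage replicate 1 it was -1.37 (limma adjusted p = 0.000283), and without replicate 1 of both populations it was -1.29 (limma adjusted p = 0.000210).

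Markers of neutrophils varied with the replicate number, and are given here because neutrophils carry Fcgr4 and Fcgr3. The mean log2 value of 10 neutrophil markers was 7.40, 6.38 and 6.06 in dendritic replicates 1, 2 and 3 and 7.64, 6.18 and 6.34 in macrophage replicates 1, 2 and 3. Retnlg, a secreted protein of neutrophils, held 7.43 in dendritic replicate 1 and 7.39 in macrophage replicate 1, and 4.25 to 4.33 in the other 4 arrays. Replicate 1 of both populations was thus the high one. Fcgr4 was high in macrophage replicate 1, but in dendritic replicate 1 it was at its lowest value of the series. Of the 10 markers 1 was called, the granule enzyme Mpo, lower in the dendritic population by 0.74 (-0.74 ± 0.19, limma adjusted p = 0.0207), and it kept that call in 8 of 15 alternatives. Its call was lost without replicate 1 or 2 of the dendritic and without replicate 1 or 3 of the macrophage arrays. The part of neutrophil RNA in the Fcgr4 values was not tested.

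Fcer1g (probe set 10360070) encodes the gamma chain, which the activating receptors need for full surface expression and for signalling in mice. It was bright in both populations, at 9.42, 9.97 and 9.76 in the dendritic arrays and 11.57, 11.34 and 11.21 in the macrophage arrays. The lowest macrophage array stood 1.24 above the highest dendritic array. The difference was -1.66 ± 0.17, 3.15-fold (limma adjusted p = 0.000130). The dendritic population therefore held gamma chain RNA well above the array median in every array, at 9.72 ± 0.28 (SD, n = 3).

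Fcgr2b (probe set 10360028) encodes CD32B, the inhibitory receptor. Its values were 5.81, 5.97 and 5.24 in the dendritic arrays and 10.11, 10.28 and 9.94 in the macrophage arrays. The gap between the populations was 3.96, the widest of the members. The difference was -4.44 ± 0.20, 21.7-fold (limma adjusted p = 1.03e-06). The extracellular domains of Fcgr2b and Fcgr3 are known to be very similar in sequence. The probe sequences were not used here, so signal shared between their probe sets cannot be separated and the value of either gene is uncertain to that degree.

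Whether the activating receptors and the inhibitory receptor differed by the same amount was asked within each array, by taking the log2 value of a gene minus that of Fcgr2b. Only the shift of this quantity between the populations is read, since the levels of different probe sets are not on a common scale. The exact permutation test over 3 against 3 arrays (2-sided) cannot give a p below 0.1, and 4 genes were compared. No comparison could therefore pass 0.05, whatever its size.

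The arrays overlapped for Fcgr1. Its log2 value minus that of Fcgr2b was -1.11 ± 0.61 in dendritic and -1.30 ± 0.12 in macrophage arrays (SD, n = 3), a shift of 0.19 (exact permutation p = 0.9, 0.9 after Benjamini-Hochberg adjustment). The shift was -0.16 without dendritic replicate 3, in which Fcgr2b was low and Fcgr1 high for the population. For Fcgr3 the shift was -0.43, from 1.01 ± 0.31 in macrophage to 0.58 ± 0.49 in dendritic arrays, and the arrays overlapped (exact permutation p = 0.3, adjusted 0.4). These p-values do not show that the genes differed by the same amount.

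For Fcer1g and Fcgr4 the arrays of the populations did not overlap, and their differences were smaller than that of Fcgr2b. The value of Fcer1g minus Fcgr2b was 3.61, 3.999 and 4.52 in the dendritic arrays and 1.46, 1.07 and 1.27 in the macrophage arrays. The shift was 2.78 (exact permutation p = 0.1, the smallest possible, adjusted 0.2), or 6.87-fold toward the gamma chain in the dendritic population. For Fcgr4 the dendritic values were -2.56, -2.45 and -1.83 and the macrophage values were -3.72, -5.42 and -5.27. That shift was 2.53 (exact permutation p = 0.1, adjusted 0.2). Fcgr2b itself differed by -4.44, at rank 47 of 19938 genes from the lowest difference, and the median of all genes was 0.03. Nearly all genes therefore shift upward relative to Fcgr2b, so an upward shift is not particular to Fcer1g and Fcgr4. The share of all genes whose arrays do not overlap in this way was not computed. Fcgr4 lay under the array medians in the dendritic arrays and near them in macrophage replicates 2 and 3, where RMA values compress differences, so the size of its shift is not a measure of transcript numbers.

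**Figure D2:**
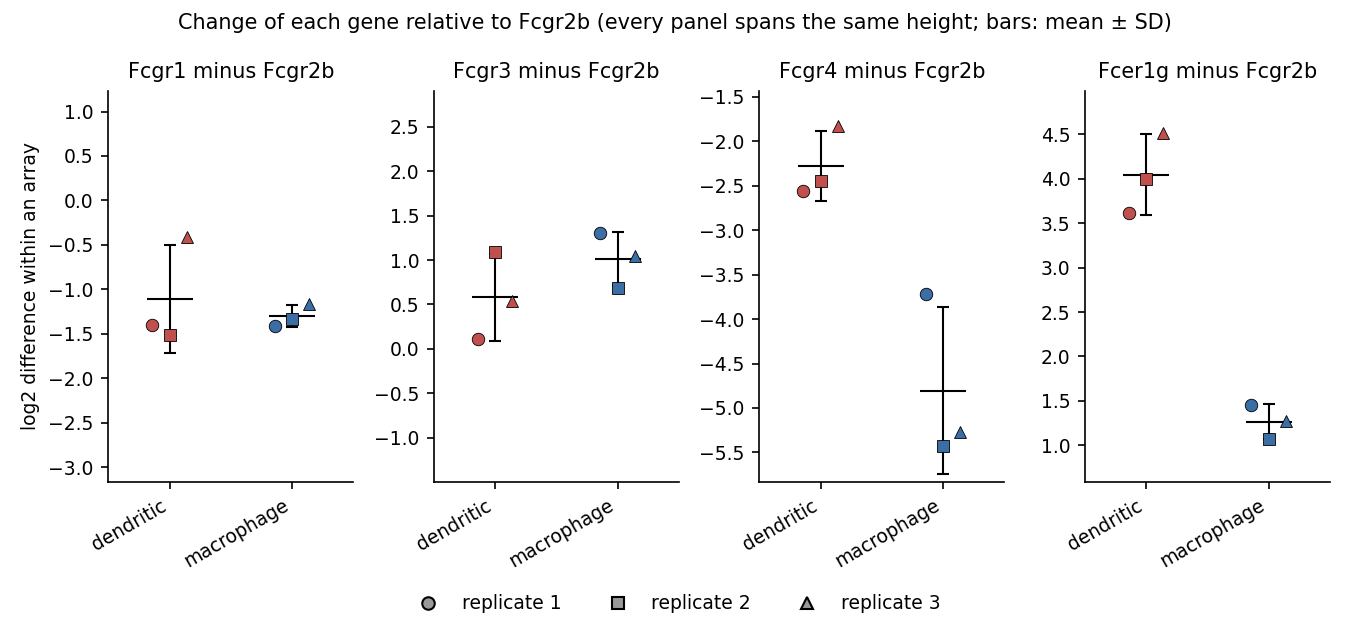
Log2 value of Fcgr1, Fcgr3, Fcgr4 and Fcer1g minus that of Fcgr2b within each array (vertical axis, each panel spanning the same height), by population. Symbols are arrays and bars are the mean ± SD of 3 arrays. Fcer1g and Fcgr4 shift upward in the dendritic arrays by 2.78 and 2.53, while the arrays overlap for Fcgr1 and Fcgr3. Nearly all genes shift upward relative to Fcgr2b.

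The gamma chain also serves receptors that do not bind IgG. Of 6 such receptor genes measured, 4 were lower in the dendritic population and none was higher, with a median difference of -4.73 (limma, with 1 higher at an unadjusted p under 0.05, namely Oscar). All 4 were C-type lectins of the Dectin-2 family. Over all genes, 11.6% were called lower. Clec4d differed by -6.03 ± 0.19, the Dectin-2 gene Clec4n by -5.29 ± 0.20, the Mincle gene Clec4e by -4.86 ± 0.16 and Clec4b1 by -4.60 ± 0.28 (limma adjusted p at most 6.38e-06). The dendritic means of Clec4d (4.52), Clec4e (3.86) and Clec4b1 (3.36) lay below the array medians, which limits what their sizes show. Clec4n held 5.62, 6.28 and 5.57 in the dendritic arrays and 11.20, 11.19 and 10.96 in the macrophage arrays. The osteoclast-associated receptor Oscar differed by 0.42 ± 0.15 and was not called (limma adjusted p = 0.0737, and 0.00696 to 0.237 over the alternatives, with a call in 5 of 14, among them without dendritic replicate 1 and without macrophage replicate 1). The IgE receptor chain Fcer1a was dim in both populations, at 2.996 and 3.02.

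Of 3 other adaptors of this kind 1 was called, and it was lower. Over all genes, 21.6% were called in either direction. Tyrobp (DAP12), which carries an ITAM and serves other myeloid receptors, was bright in both populations, at 11.04, 11.33 and 11.43 in the dendritic arrays and 11.83, 11.68 and 11.64 in the macrophage arrays. These arrays did not overlap, and the difference of -0.46 ± 0.14 was not called (limma adjusted p = 0.0509, and 0.00935 to 0.195 over the alternatives, with a call in 3 of 15). Hcst (DAP10), which signals through a phosphoinositide kinase motif, was lower by 2.02 on the log2 scale (-2.02 ± 0.13, limma adjusted p = 8.73e-06). The T cell receptor zeta chain Cd247 held 5.09 and 4.96 and was not called (limma adjusted p = 0.573).

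Other myeloid receptors listed as ITIM receptors, as Fcgr2b is, were mostly lower as well. Whether each mouse protein carries the motif was not checked. Of 14 measured, 11 were lower, 1 was higher and 2 were not called, with a median of -2.84. The largest differences were those of Pilra, at -5.01 ± 0.13 (limma adjusted p = 9.59e-08), and of the lectin Clec4a2 (DCIR), at -4.53 ± 0.25 (limma adjusted p = 3.33e-06). Pilra held 4.19 to 4.41 in the dendritic arrays and 9.16 to 9.37 in the macrophage arrays. The higher one was the adhesion receptor Ceacam1, at 1.88 ± 0.17 (limma adjusted p = 6.72e-05). Of all genes tested, 11.6% were called lower and 9.98% higher in the dendritic population.

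Most other Fc receptors and Fc receptor-like genes were dim and were not called. Of 12 measured, 2 were lower, none was higher and 10 were not called, with a median of -0.03 (limma, with 3 lower and 0 higher at an unadjusted p under 0.05). The share of all genes called was 11.6% lower and 21.6% in either direction, so these counts do not set the list apart. Fcrls, an Fc receptor-like scavenger receptor known from microglia, held 3.30, 3.58 and 4.12 in the dendritic arrays and 7.72, 8.38 and 7.42 in the macrophage arrays. Its difference was -4.18 ± 0.27 (limma adjusted p = 8.82e-06), close in size to that of Fcgr1. The dendritic means of Fcrls (3.67) and Fcgr1 (4.56) both lay below the array medians of 4.79 to 4.96. This limits what the likeness in size shows. Fcrlb, an Fc receptor-like protein that stays inside the cell, differed by -0.94 ± 0.15 (limma adjusted p = 0.00176). The cytosolic antibody receptor Trim21 was not called. The genes not called included Fcer2a, the low-affinity IgE receptor of B cells, and Pigr, which carries polymeric immunoglobulin across epithelia.

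**Figure D3:**
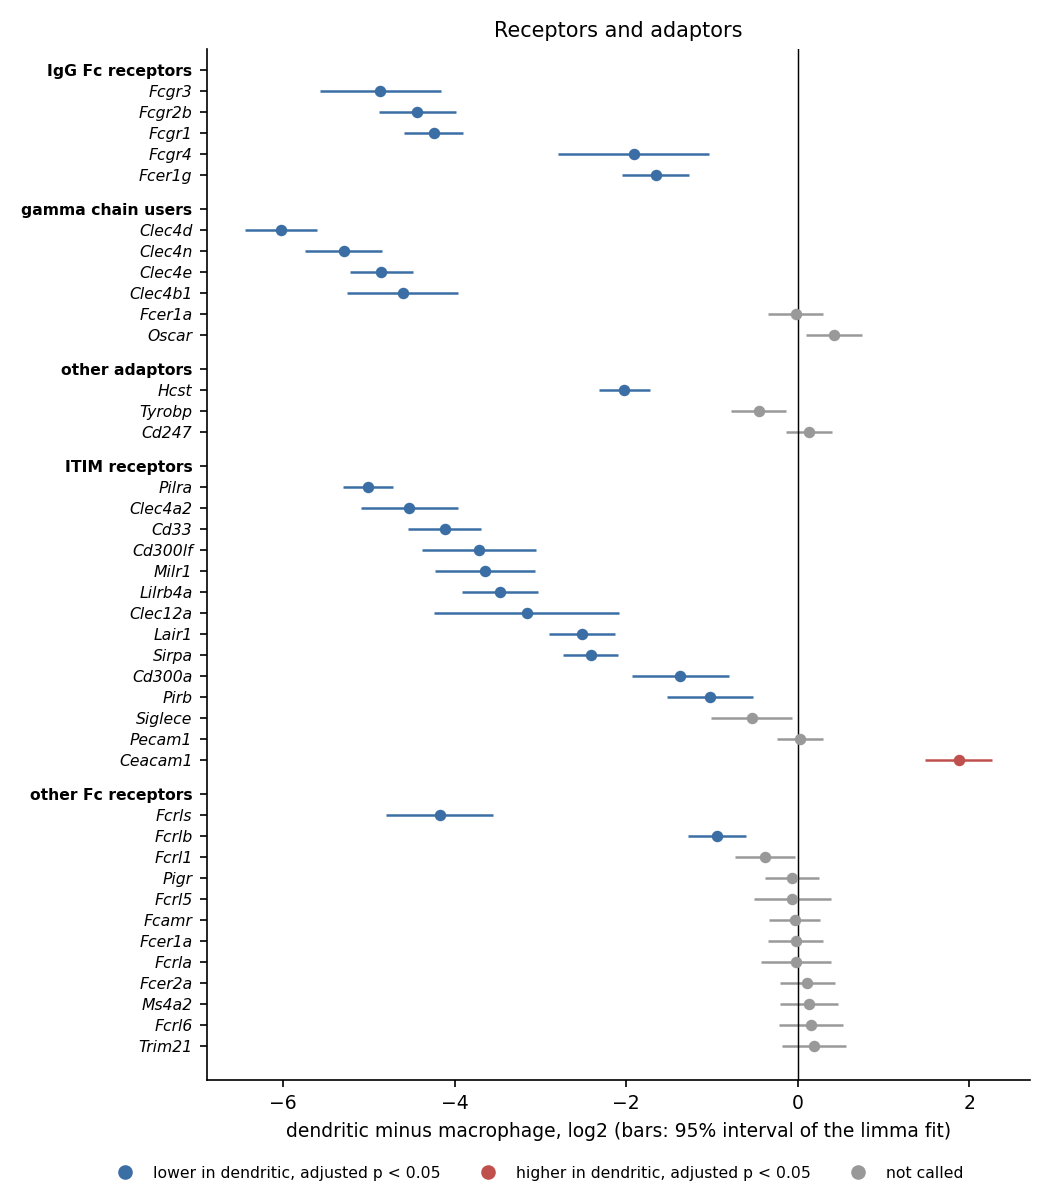
Difference between the populations (dendritic minus macrophage, log2, horizontal axis) for the IgG Fc receptor genes and for 4 lists of related receptors and adaptors. Points are limma estimates from 6 arrays and bars are 95% intervals. The 5 measured IgG receptor genes, 4 receptors that use the gamma chain and 11 receptors of the ITIM list lie to the left of 0 and were called.

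Fcgrt itself was not analysed, but its partners were. The FcRn heavy chain pairs with beta-2-microglobulin and carries IgG through recycling endosomes away from the lysosome. B2m was bright in all arrays, at 11.87, 11.91 and 11.87 in the dendritic arrays and 11.82, 11.74 and 11.57 in the macrophage arrays, and it was not called (0.17 ± 0.12, 95% interval -0.11 to 0.45, limma adjusted p = 0.439). Of 8 partner and recycling genes measured, 3 were higher, 1 was lower and 4 were not called. Over all genes, 9.98% were called higher and 11.6% lower. The endosomal recycling protein Ehd1 was higher by 1.57 ± 0.12 (limma adjusted p = 2.36e-05), Rab11fip1 by 0.77 ± 0.16 and the recycling GTPase Rab11a by 0.73 ± 0.13. Rab11fip5, another effector of that GTPase family, was lower (-1.57 ± 0.20, limma adjusted p = 0.000471).

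The signalling genes that act after the receptor differed in both directions. Of 25 genes of ITAM signalling measured, 11 were lower, 6 were higher and 8 were not called, with a median of -0.48. Under the replicate block, with the replicate number as a term, 20 were called. Without that term, 11.6% of all genes were called lower and 9.98% higher. Syk, the kinase that binds the phosphorylated ITAM, held 8.42, 8.30 and 8.26 in the dendritic arrays and 8.40, 7.92 and 7.88 in the macrophage arrays. These overlapped, and the difference of 0.26 ± 0.16 was not called (95% interval -0.11 to 0.63, limma adjusted p = 0.366). The Src family kinases measured went apart. Fgr was lower (-2.65 ± 0.19, limma adjusted p = 1.49e-05), Fyn was higher (3.02 ± 0.29, limma adjusted p = 8.00e-05) and Src was not called.

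Among adaptors between the kinases and calcium signalling, Lat2 and Lcp2 were lower, while Blnk (-0.80 ± 0.59, limma adjusted p = 0.457), Lat (-0.02 ± 0.12) and Grb2 (0.29 ± 0.12) were not called. Blnk was called lower in the fit that blocked on replicate number (limma adjusted p = 0.0139). Lat2, the myeloid and B cell relative of the T cell adaptor LAT, held 5.28, 5.48 and 5.29 in the dendritic arrays and 8.40, 8.35 and 8.37 in the macrophage arrays, a difference of -3.03 ± 0.12 (limma adjusted p = 6.41e-07). Lcp2 (SLP-76) differed by -2.70 ± 0.33 (limma adjusted p = 0.000384). Its dendritic arrays ranged from 5.33 to 6.92, below the macrophage arrays at 8.65 to 8.88. Related genes of the list were called in opposite directions. The phospholipase Plcg1 was higher (1.27) and Plcg2 lower (-1.18), and the catalytic kinase subunit Pik3cg was higher (0.83) and Pik3cd lower (-1.80). Of the exchange factors, Vav3 (1.09) and Vav2 (0.57) were higher and Vav1 was lower (-0.99). The regulatory kinase subunit Pik3r1 was higher by 1.84 ± 0.13 (limma adjusted p = 1.25e-05). The call of Vav2 was lost in 5 of 15 alternatives, among them without dendritic replicate 1 or 2 and without macrophage replicate 2 or 3. That of Vav3 was lost in 3, among them without macrophage replicate 2 or 3. That of Prkcd was lost in 5, among them without dendritic replicate 2 or 3 and without macrophage replicate 1 or 2.

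Negative regulators of this signalling were also divided. Of 13 measured, 6 were lower, 3 were higher and 4 were not called, with a median of -0.36. Among all genes tested, 11.6% were called lower and 9.98% higher. Inpp5d (SHIP1), the phosphatase that Fcgr2b recruits, held 8.28, 8.35 and 8.22 in the dendritic arrays and 8.79, 8.67 and 8.70 in the macrophage arrays. Its difference was small next to that of Fcgr2b, at -0.44 ± 0.12 (limma adjusted p = 0.0259, and 0.0103 to 0.134 over the alternatives), and it was called in 9 of 15 alternatives. Its call was lost when dendritic replicate 3 or any macrophage replicate was left out, and with 75th percentile centring. The tyrosine phosphatase Ptpn6 (SHP-1) was not called (-0.36 ± 0.16, limma adjusted p = 0.165).

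The largest differences among the negative regulators were those of Cblb and Ptpn22. The ubiquitin ligase Cblb was higher in the dendritic population, at 10.80, 10.78 and 10.60 against 7.16, 7.21 and 7.49 in the macrophage arrays (3.44 ± 0.14, limma adjusted p = 6.55e-07). The phosphatase Ptpn22, which acts on Src family kinases, was lower (-3.34 ± 0.19, limma adjusted p = 3.72e-06). Its dendritic mean of 4.32 lay below the array medians, which limits what that size shows. The phosphatase Ubash3b was higher by 1.80 ± 0.23. The docking protein Dok2 was lower (-1.79 ± 0.21), and its relative Dok1 was higher by 1.11 ± 0.15.

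**Figure D4:**
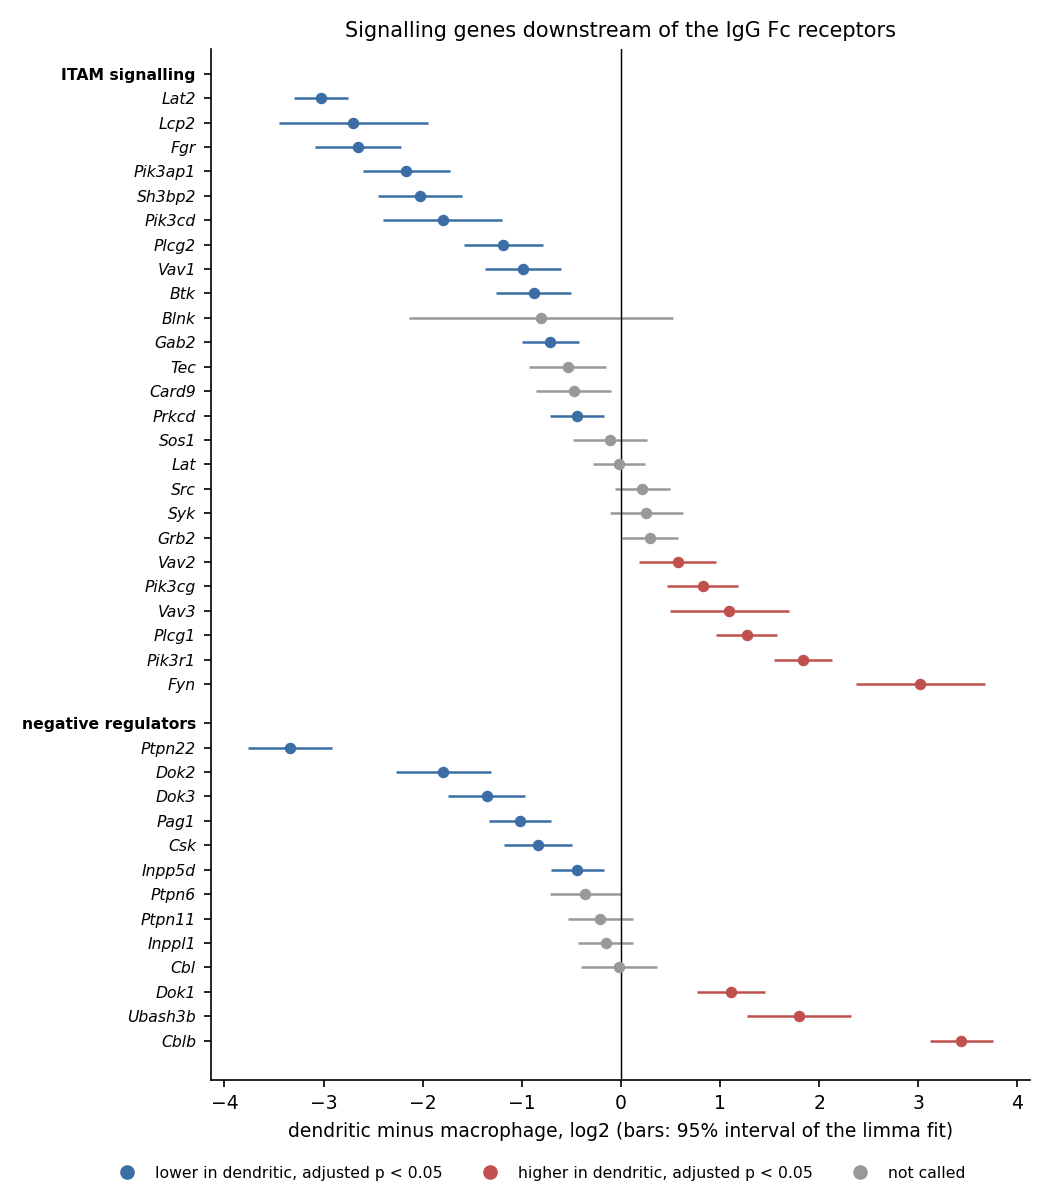
Difference between the populations (dendritic minus macrophage, log2, horizontal axis) for 25 genes of ITAM signalling and 13 negative regulators. Points are limma estimates from 6 arrays and bars are 95% intervals. Both lists hold genes on either side of 0, from Ptpn22 at -3.34 to Cblb at 3.44, with Syk not called.

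Genes of the phagocytic cup, the actin structure that closes around an IgG-coated particle, were called in both directions. Of 16 measured, 4 were lower, 2 were higher and 10 were not called, with a median of 0.04. Over all genes tested, 11.6% were called lower and 9.98% higher. The long-tailed myosin Myo1f was lower (-4.43 ± 0.18, limma adjusted p = 6.91e-07), as was the GTPase Rac2 (-2.10 ± 0.18, limma adjusted p = 3.88e-05). Gsn and Myo1e were the other lower genes. Wasl, an activator of actin branching, was higher by 0.92 ± 0.13 and the engulfment adaptor Elmo1 by 0.91 ± 0.20. Under the replicate block 8 genes of this list were called.

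The genes whose profile over the 6 arrays lay nearest to each member were found by the Euclidean distance of mean-centred log2 values, among 17067 other genes. Nearest to Fcgr1 were the amino acid transporter Slc36a1 (distance 0.44) and the lysozyme gene Lyz2 (0.47). Myo1f (0.31) and the secreted matrix protein Ccdc80 (0.41) were nearest to Fcgr2b, and the macrophage elastase Mmp12 (0.46) and the nucleotide receptor P2ry6 (0.67) to Fcgr3. Mmp12 shared with Fcgr3 a high dendritic replicate 2, at 7.74 against 6.13 and 6.24. Tmem273 (0.34) and the scaffold protein Iqgap2 (0.41) were nearest to Fcgr4, and both were high in macrophage replicate 1, at 7.55 and 7.41. Zcchc24 (0.18) and Tmem189 (0.21) were nearest to Fcer1g. The distance is set mostly by the difference between the populations, so it describes these arrays and no more.

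On chromosome 1 the genes Fcgr2b, Fcgr4 and Fcgr3 lie side by side, with Fcer1g further along, and Fcgr1 lies on chromosome 3. Up to 5 protein-coding genes on each side of a member were examined in the RefSeq order. Of 13 measured neighbours on chromosome 1, 3 were lower, 1 was higher and 9 were not called, with a median of -0.03. Over all genes, 11.6% were called lower and 9.98% higher, so these small counts do not set the neighbours apart. The nearest measured neighbours, Fcrla before Fcgr2b (-0.02 ± 0.18), Cfap126 after Fcgr3 (-0.42 ± 0.19), and Apoa2 (-0.48 ± 0.16) and Adamts4 (0.10 ± 0.17) beside Fcer1g, were not called. Under the replicate block Apoa2 was called (limma adjusted p = 0.0215), as it was without macrophage replicate 1 (limma adjusted p = 0.0317), within 0.0152 to 0.231 over the alternatives.

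The lower neighbours on chromosome 1 were Fcrlb, the respiratory chain subunit Sdhc (-1.01 ± 0.15, limma adjusted p = 0.00100) and Tomm40l (-0.42 ± 0.13), and B4galt3 was higher (0.44 ± 0.13). The call of Tomm40l was kept in 5 of 15 alternatives and that of B4galt3 in 8 of 15. Both were lost without dendritic replicate 2 or 3 and without macrophage replicate 1 or 2. Of 7 measured neighbours of Fcgr1, 2 were lower, namely Txnip, an inhibitor of thioredoxin (-2.31 ± 0.34, limma adjusted p = 0.00119), and the RNA polymerase subunit Polr3gl (-0.64 ± 0.12). The adjoining H2bc18 and BC107364 were not called. Among all genes, 11.6% were called lower.

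**Figure D5:**
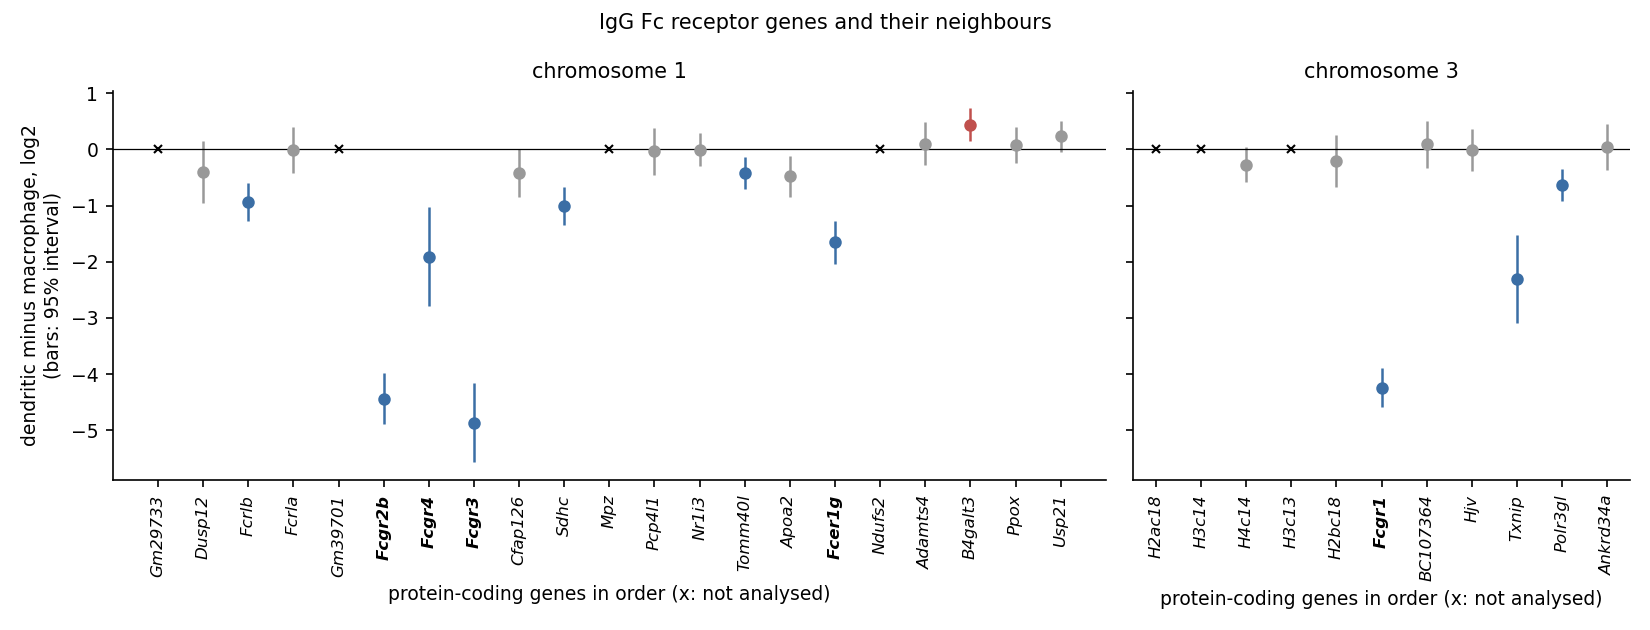
Difference between the populations (dendritic minus macrophage, log2, vertical axis) for the IgG Fc receptor genes (bold) and their protein-coding neighbours in gene order, with 95% intervals of the limma fit. Crosses mark genes not analysed. Fcgr2b, Fcgr3 and Fcgr1 lie below -4, and none of the 20 measured neighbours lies below the -2.31 of Txnip. Fcgr4 (-1.91) and Fcer1g (-1.66) lie above Txnip, within the range of the neighbours.

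The labels were checked against markers of each cell type. Of 12 dendritic cell markers 9 were higher in the dendritic population and 1, Clec9a, was lower (-2.57 ± 0.16), and all 9 measured macrophage markers were lower. Over all genes, 9.98% were called higher and 11.6% lower. Markers of T and NK cells, mast cells and basophils, eosinophils and erythroid cells gave 0 calls with limma, and 1 of their 18 genes passed an unadjusted p under 0.05. Among B cell markers Cd79a was called higher (0.81 ± 0.19) at a dim 3.95 against 3.14. B cells are known to carry Fcgr2b, and the part of B cell RNA in the Fcgr2b values was not tested. The call of Cd79a was lost without dendritic replicate 2 and without macrophage replicate 2.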

How the data were processed

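Total RNA (6 ug per sample, per the labels) was measured on 6 arrays. The authors deposited log2 values of 35556 probe sets on each array, and the submitters' processing notes name RMA and R 3.0.2. RMA subtracts background, quantile-normalizes and summarizes probes, and it compresses differences of dim genes. Filters, genome build and the arrays processed together are not stated in these sources. Precision is limited by the number of arrays.

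Gene names came from the platform table (21789 with 1 symbol, 1621 with several, 12146 unnamed), with symbols checked by Entrez identifier in a RefSeq table of GRCm38.p6 (21698 matched). The brightest probe set stood for a gene, which left 19938 genes. The test was limma 3.58.1 in R 4.3.3 (lmFit and eBayes, population as the only term, 2-sided, Benjamini-Hochberg over all genes). Changes relative to Fcgr2b used an exact permutation test (scipy 1.17.1). On simulated data for the dendritic minus macrophage comparison of 19938 genes, 5 of 67 simulated log2 differences of 0.5 were recovered. Of size 1, 61 of 67 were recovered, and of size 2, 66 of 66. The simulation gave 142 calls, 10 of them false, against 4312 calls in the data. Its recovery rates therefore need not hold for the data.

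The members and gene lists were chosen with earlier results of these data known. Named genes are all members, up to 2 called genes in each direction per list with the largest difference, the 2 nearest profiles of each member, nearest neighbours, and genes of small counts. Others (Syk, Inpp5d, Ptpn6, Tyrobp, B2m, Retnlg, Src, Trim21, Fcer2a, Pigr, Cd247, Oscar, Fcer1a, Plcg1, Plcg2, Blnk, Lat, Grb2, Pik3cg, Pik3cd and the Vav genes among them) were named for their role after their values were seen. Deviations of arrays with the same number from the population means correlated over genes at 0.385, 0.147 and 0.272 for numbers 1, 2 and 3. All were over 0.1, and a second fit held the number as a block. Dendritic number 2 with macrophage number 3 gave 0.155, and dendritic number 3 with macrophage number 2 gave 0.128, also over 0.1. These correlations therefore do not show that numbers 2 and 3 pair the samples, and the block is an alternative fit only.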

Additional observations from a re-analysis of the deposited data

How the results depend on the processing

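The 5 measured members were called lower when each array was left out in turn, with the replicate block and after quantile normalization was applied again. They were also called lower with 75th percentile centring, with array weights, with eBayes trend and robust and with all probe sets tested. The same held with the mean of a gene's probe sets. Each member had 1 probe set, so that setting left the members' values unchanged and could not test their calls. Without genes under the median level 4 were called, since Fcgr4 fell under that level and was not tested. Leaving out replicate 1 of both populations, an alternative chosen after seeing the data, also kept all 5. The shift of Fcgr1 relative to Fcgr2b ranged from -0.16 to 0.40 as each array was left out, and it turned negative without dendritic replicate 3 (-0.16). The shifts of Fcgr3, Fcgr4 and Fcer1g relative to Fcgr2b kept their sign, at -0.68 to -0.20, 2.22 to 3.07 and 2.54 to 2.99. With array weights, with eBayes trend and robust and without genes under the median level 2 of the 3 other adaptors were called in place of 1, the second being Tyrobp. The replicate block left the 5 members called (5 of 5), and called 43 companion genes lower in place of 40 and 17 higher in place of 15. The shifts relative to Fcgr2b stayed at 0.19, -0.43, 2.53 and 2.78 for Fcgr1, Fcgr3, Fcgr4 and Fcer1g. Each number occurs once in each population, so the block could not move these shifts and is no check of them. The block added calls of Blnk, Card9, Tec, Dock2, Myo10 and Apoa2 and removed none of the named genes' calls. Over all genes the count of calls was 4312, and 3311 to 4625 as each array was left out. The dendritic values of Fcgr1 and all values of Fcgr4 except that of macrophage replicate 1 lay near or under the array median, which limits what their sizes show.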
